A study of Homo sapiens with 20 samples.

Results

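Amino acid transporter mRNA was followed in K562 cells, a human chronic myeloid leukemia line with erythroid features, through 9 genes chosen by symbol: SLC7A1, SLC7A5, SLC7A11, SLC3A2, SLC1A4, SLC1A5, SLC38A1, SLC38A2 and SLC6A9. All 9 were found by Ensembl gene identifier among the 57736 genes of the drug-treated libraries and the 53153 genes of the silencer-excision libraries, and all 9 passed the filter on low counts in both. The choice was by name and not by their values here, although earlier results of these data were known. In the drug arm, 12 total RNA libraries covered 6 groups of 2. Cells were given the solvent DMSO for 72 h, the EZH2 inhibitor GSK343 (5 uM, 72 h), the REST inhibitor X5050 (100 uM, 72 h), or both drugs together at those doses for 8, 24 or 72 h. DMSO was given for 72 h only, so at 8 and 24 h the drugs and the length of culture cannot be told apart. In the excision arm, 8 libraries covered 4 groups of 2: cells with the empty vector (EV), cells with silencer 1 (S1KO) or silencer 2 (S2KO) removed by CRISPR excision, and cells lacking both (DKO). The labels do not say whether the excised cells were single clones. They call the libraries of a group biological replicates without saying what separated them. Each p-value measures only the spread between libraries within groups, estimated jointly over all groups of an arm and not from the compared groups alone.

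Cells import amino acids through carriers that differ in substrate and in what they exchange. SLC3A2 is a heavy chain that brings several light chains to the plasma membrane, among them SLC7A5, which exchanges glutamine for leucine and other large neutral amino acids, and SLC7A11, which exchanges glutamate for cystine and so feeds glutathione synthesis. SLC1A4 and SLC1A5 exchange neutral amino acids such as alanine, serine and glutamine, SLC38A1 and SLC38A2 take up glutamine and other small neutral amino acids with sodium, SLC7A1 carries arginine and lysine, and SLC6A9 carries glycine, which erythroid cells use for heme. Many of these genes are known targets of ATF4, the transcription factor of the amino acid response, which binds composite elements of the type TGATGNAAN.

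Promoter sequences are shown for the heavy chain and its main light chain, whose mRNAs moved apart, and for SLC38A2, the member with the largest rise. RefSeq start windows (GRCh38.p14, 250 bases before to 50 after a start site) matched 8 of the 9 members, with 14 windows in all; SLC7A11 was not matched. The first 3 sequences are the 250 bases before the start, with capitals for the E-box CACGTG in SLC7A5 and for the antioxidant response motif TGACNNNGC in SLC3A2.
SLC7A5, chr16:87869508-87869757, minus strand: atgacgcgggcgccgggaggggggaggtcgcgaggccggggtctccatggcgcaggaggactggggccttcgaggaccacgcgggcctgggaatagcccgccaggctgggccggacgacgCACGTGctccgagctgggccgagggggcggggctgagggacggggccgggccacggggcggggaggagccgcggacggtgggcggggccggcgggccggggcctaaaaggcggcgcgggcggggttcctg
SLC3A2, chr11:62881449-62881698, plus strand: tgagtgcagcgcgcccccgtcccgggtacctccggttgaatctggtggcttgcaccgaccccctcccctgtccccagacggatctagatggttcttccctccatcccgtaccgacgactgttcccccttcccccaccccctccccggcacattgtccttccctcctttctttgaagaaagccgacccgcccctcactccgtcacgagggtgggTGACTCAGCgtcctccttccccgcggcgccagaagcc
SLC38A2, chr12:46372774-46373023, minus strand: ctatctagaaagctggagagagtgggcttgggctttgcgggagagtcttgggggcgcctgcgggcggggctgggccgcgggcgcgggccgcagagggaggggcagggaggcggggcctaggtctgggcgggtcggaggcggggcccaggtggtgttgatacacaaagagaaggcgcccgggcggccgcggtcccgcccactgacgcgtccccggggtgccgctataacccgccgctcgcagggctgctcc
The SLC38A2 window held none of the motifs searched. These were the amino acid response core TTGCATCA, its wider form TGATGNAAN (which overlaps it), TGACNNNGC and CACGTG, each on both strands. The next 4 sequences are 30 bases around matches to the amino acid response motifs, in capitals.
SLC1A4, chr2:64989382-64989411, plus strand: cggctcccgtTTGCATCAtctccagccggc
SLC1A5, chr19:46784892-46784921, minus strand: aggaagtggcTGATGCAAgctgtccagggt
SLC7A1, chr13:29595662-29595691, minus strand: ggcgcactgcTGATGAAACctggcgccgga
SLC38A1, chr12:46266501-46266530, minus strand: cagacccgaaTGATGAAAAgggatcagcta
The matches began 7 bases before the start site in SLC1A4 and 97 bases before one of the starts of SLC1A5, both to TTGCATCA, which 0.866% of all 35116 windows of 300 bases held. The matches of SLC7A1 and SLC38A1 were to TGATGNAAN, which 3.61% of windows held, at 8 bases past and 4 bases before the start. TGACNNNGC was in 13.3% and CACGTG in 7.26% of windows, the latter 130 bases before the start in SLC7A5. The other matches in the 14 windows lay outside the printed stretches or were of motifs not capitalised there. TGACNNNGC was also met as TGACGCAGC across the start of SLC7A5, as TGACGCGGC in SLC7A1 and, on the other strand, as GCGAGGTCA before a start of SLC1A5. CACGTG was met before that same start of SLC1A5, and the wide amino acid response form just past the start of SLC3A2, on the other strand, as CTTACATCA. A match describes these letters only, and binding was not measured here.

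The drug libraries held 22925617 to 38177320 gene counts and the excision libraries 55913728 to 98507880, and each member had at least 284 counts in each library, so counting error was small beside the spread between libraries. The share of drug-arm reads outside STAR's gene counts was 34 to 37.22% at 8 and 24 h, 40.09 to 42.61% in DMSO and under single drugs, and 49.87 to 50.67% under both drugs at 72 h. The part of this share in the results was not tested. All 10 K562 markers (GATA1, TAL1, globins and others) had counts in every library, and their summed level was 1640 to 2430 CPM (counts scaled to a common library size by TMM) in DMSO and GSK343, 2950 and 5930 in X5050 and 4680 to 6000 under both drugs. Of 15 markers of other cell types, MS4A1 was at 0 in all libraries, and their summed level in the drug arm was 51.6 to 95.2 CPM, most of it from EPCAM and LYZ. The DMSO libraries stood apart from each other for the members: their values differed 1.04 to 2.20-fold (median 1.47), against group medians of 1.03 to 1.19 in the other drug-arm groups. EZH2 and REST were inhibited as proteins and the silencers are noncoding, so no targeted mRNA checks the labels. In these bulk libraries, fewer cells of a kind and less RNA per cell cannot be told apart.

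Both drugs together for 72 h lowered most of the members. A gene was called when its Benjamini-Hochberg adjusted p, from edgeR's quasi-likelihood test over all 19224 genes tested, was under 0.05. By this rule 6 members fell, 2 rose and 1 was not called, a count of 8 of 9 against 36.4% of all genes called (17.3% lower, 19.2% higher). The median log2 change over the members was -0.69, and 0.01 over all genes tested. GSK343 alone had 3 members called, all higher, where 12.4% of all genes were called (9.12% higher, 3.31% lower). X5050 alone had 1 higher and 2 lower, where 12.6% of all genes were called (5.34% higher, 7.23% lower). The GSK343 count was 0 without either GSK343 library and 7 without DMSO replicate 1, and the X5050 count was 1 without X5050 replicate 1 and 6 without DMSO replicate 1. These 3 comparisons share their DMSO libraries. Of the calls under both drugs, those of SLC1A4, SLC1A5, SLC38A2, SLC6A9, SLC7A1 and SLC7A5 held in each alternative analysis run.

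**Figure D1:**
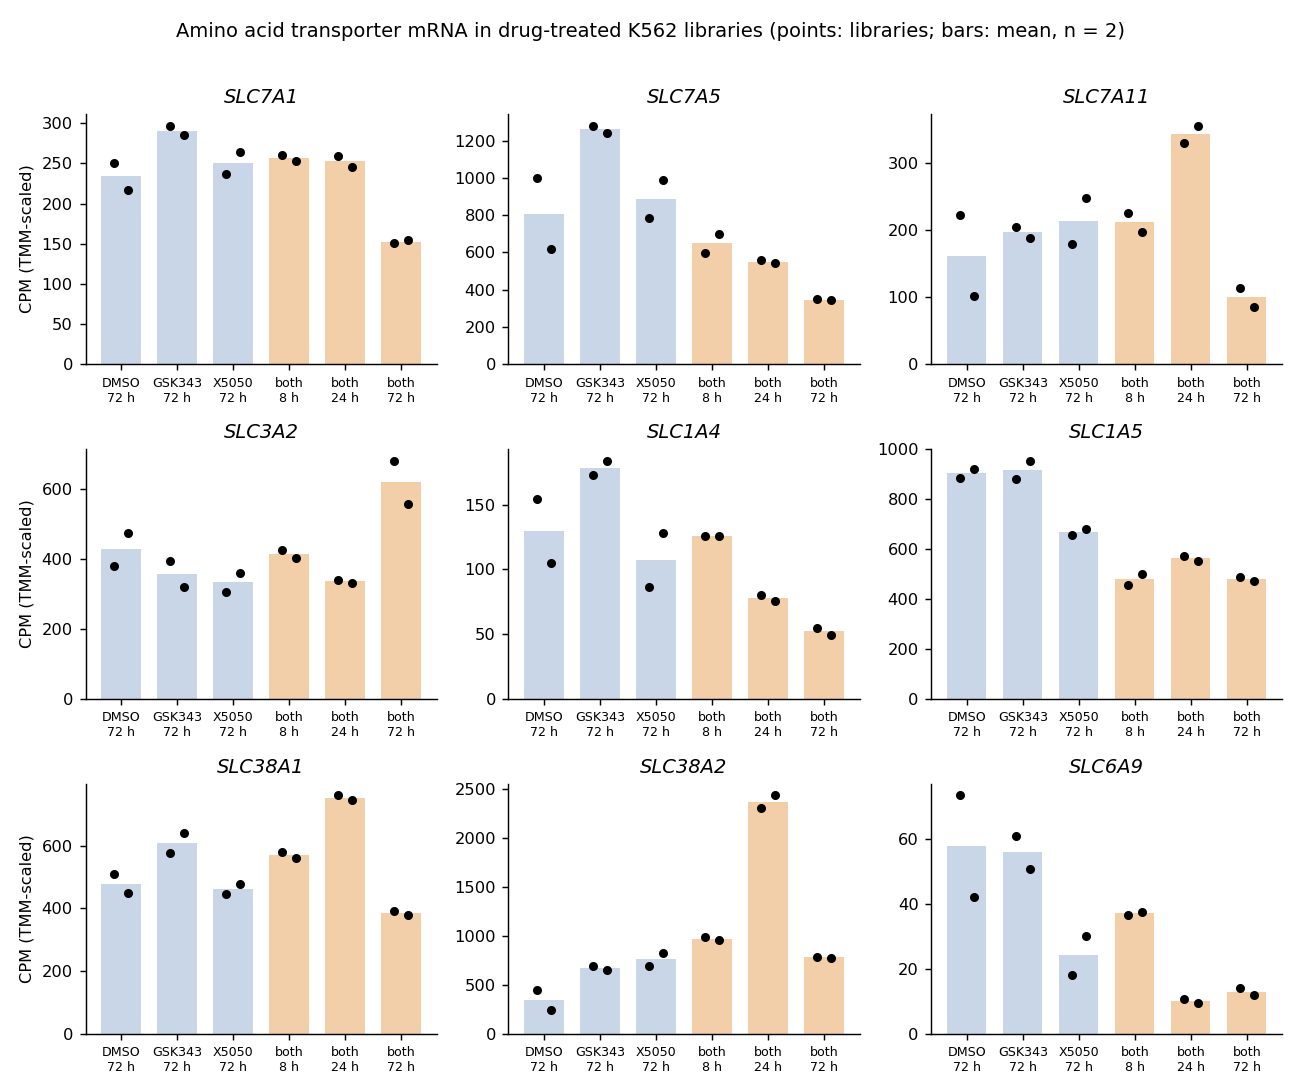
TMM-scaled CPM (linear axes from 0) of each transporter in the 12 drug-arm libraries. Points are libraries, bars are means of 2, blue bars are 72 h DMSO or single drugs and orange bars are both drugs at 8, 24 and 72 h. SLC38A2 reached 2300 and 2430 CPM at 24 h, and SLC7A5 was lowest at 72 h of both drugs (349 and 343 CPM).

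The heavy chain and its main light chain moved in opposite directions at 72 h of both drugs. SLC7A5 stood at 998 and 616 CPM in the DMSO libraries, 1280 and 1240 under GSK343, 783 and 987 under X5050, and 349 and 343 under both drugs. The libraries with both drugs lay below all other drug-arm libraries. SLC7A5 thus fell by 1.22 on the log2 scale (SE 0.18, 2.33-fold lower, edgeR adjusted p = 0.000117). Under GSK343 alone it rose by 0.64 (SE 0.18, edgeR adjusted p = 0.0299), a call that ended in 7 alternatives, among them the fit without DMSO replicate 2 (0.34, against 1.03 without replicate 1). SLC3A2 stood at 379 and 475 CPM in DMSO, 394 and 320 under GSK343, 306 and 360 under X5050, and 681 and 556 under both drugs. Here the libraries with both drugs lay above all others. SLC3A2 rose by 0.53 (SE 0.14, edgeR adjusted p = 0.00704), but the value was 0.16 once a trend with GC content was removed and the call was lost, as it was without DMSO replicate 1 (0.37) or without replicate 1 of both drugs (0.38). Against GSK343 alone (0.79, SE 0.14, edgeR adjusted p = 0.00036) and against X5050 alone (0.89, SE 0.14, edgeR adjusted p = 0.000201) the higher SLC3A2 level held in each alternative, although the latter value was 0.51 after GC correction.

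The ratio of SLC3A2 to SLC7A5 counts shows the same divergence within each library. It was 1.95 and 1.62 under both drugs at 72 h. In the other 10 drug-arm libraries it lay between 0.258 (GSK343 replicate 2) and 0.771 (DMSO replicate 2). The ratio is not corrected for transcript length, so it can be compared between libraries but gives no relative abundance of the chains.

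**Figure D2:**
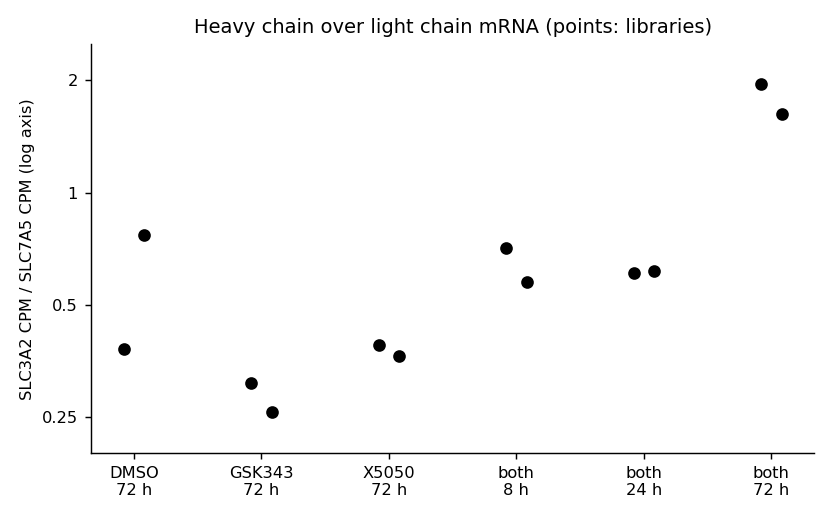
Ratio of SLC3A2 CPM to SLC7A5 CPM in each drug-arm library, on a log axis; each point is 1 library. The pair with both drugs at 72 h (1.95 and 1.62) lies above the remaining libraries (0.258 to 0.771).

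Other partners of the heavy chain had courses of their own. SLC7A8, another neutral amino acid light chain of SLC3A2, was at 18.6 and 18.2 CPM in DMSO and 90.5 and 69.4 under both drugs at 72 h, a rise of 2.12 (SE 0.23, edgeR adjusted p = 1.09e-05). SLC7A6, which exchanges cationic for neutral amino acids with SLC3A2, was not called at 72 h (-0.10, SE 0.10). SLC7A7, its relative, had only 7 and 10 counts in DMSO and 23 and 25 under both drugs. The higher call of SLC7A7 (1.5, SE 0.50, edgeR adjusted p = 0.0284) was lost in 8 alternatives and its value fell to 0.46 when both strands were counted. SLC7A6 and SLC7A7 were named after their values were seen, as further partners of SLC3A2. SLC7A11, the cystine light chain, is described below with its time course. Its libraries overlapped between DMSO (222 and 101 CPM) and both drugs at 72 h (114 and 85.6), and it was not called (-0.69, SE 0.33, edgeR adjusted p = 0.145). The SLC7A11 value turned on the DMSO pair, at -0.02 without DMSO replicate 1 and at -1.16, and called, without DMSO replicate 2. SLC7A11 under both drugs was called lower than under GSK343 (-0.98, edgeR adjusted p = 0.0463) and under X5050 (-1.10, edgeR adjusted p = 0.0372). Neither call held without a library of both drugs at 72 h (-1.20 and -0.76 against GSK343, -1.32 and -0.91 against X5050).

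The neutral exchangers of the SLC1 family fell as well. SLC1A5, which imports glutamine, was at 886 and 923 CPM in DMSO, 881 and 955 under GSK343, 657 and 679 under X5050, and 488 and 471 under both drugs. The GSK343 libraries spanned the DMSO values, whereas X5050 and both drugs lay below them without overlap. SLC1A5 fell by 0.92 under both drugs (SE 0.10, 1.89-fold lower, edgeR adjusted p = 4.74e-06) and by 0.44 under X5050 (SE 0.10, edgeR adjusted p = 0.0104), the latter call lost without either X5050 library (-0.38 and -0.40). SLC1A4, with a preference for alanine, serine and cysteine, was at 154 and 105 CPM in DMSO, 173 and 184 under GSK343, 86.5 and 128 under X5050 and 54.9 and 49.2 under both drugs. It fell by 1.31 under both drugs (SE 0.18, 2.49-fold lower, edgeR adjusted p = 7.22e-05) and was called under neither drug alone.

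The sodium-coupled carriers SLC38A1 and SLC38A2 parted at 72 h. SLC38A2, known to be induced when amino acids are scarce, stood at 447 and 241 CPM in DMSO, 691 and 646 under GSK343, 694 and 825 under X5050, and 783 and 775 under both drugs. Each treated library lay above both DMSO libraries. SLC38A2 rose by 0.96 (SE 0.21, edgeR adjusted p = 0.0112) under GSK343, by 1.14 (SE 0.21, edgeR adjusted p = 0.00469) under X5050 and by 1.18 (SE 0.21, edgeR adjusted p = 0.000854) under both. Under both drugs it did not differ detectably from either single drug (0.22 over GSK343 and 0.04 over X5050, SE 0.21 each). The DMSO pair set the size of these SLC38A2 values: without DMSO replicate 1 they were 1.47, 1.66 and 1.68 and without replicate 2 they were 0.58, 0.77 and 0.79, all still called. The calls under the single drugs were lost when only the 2 groups compared entered the fit, at nearly the same values (0.96 and 1.16). SLC38A1, in contrast, was at 509 and 448 CPM in DMSO, 578 and 641 under GSK343, 447 and 478 under X5050, and 391 and 380 under both drugs. Its changes were small: 0.35 under GSK343 (SE 0.11, edgeR adjusted p = 0.0403) and -0.31 under both drugs (SE 0.11, edgeR adjusted p = 0.0304). Both SLC38A1 calls were lost in several alternatives, the GC correction among them (0.25 and -0.28).

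The cationic carrier SLC7A1 and the glycine carrier SLC6A9 completed the list. SLC7A1 was at 251 and 217 CPM in DMSO, 297 and 285 under GSK343, 237 and 264 under X5050, and 151 and 154 under both drugs, so only both drugs together gave libraries below DMSO. It fell by 0.62 (SE 0.11, 1.54-fold lower, edgeR adjusted p = 0.000326). SLC6A9 had the largest fall of the 9, from 73.4 and 42.0 CPM in DMSO to 14.1 and 11.9 under both drugs (-2.15, SE 0.27, 4.45-fold lower, edgeR adjusted p = 0.000101). With GSK343 the SLC6A9 libraries, 61.0 and 50.8 CPM, lay between the DMSO values. With X5050 they were at 18.2 and 30, below both, and the fall of 1.26 was called (SE 0.26, edgeR adjusted p = 0.0102) but not without X5050 replicate 1 (-0.91). Without DMSO replicate 1 the X5050 value was -0.80 and still called.

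**Figure D3:**
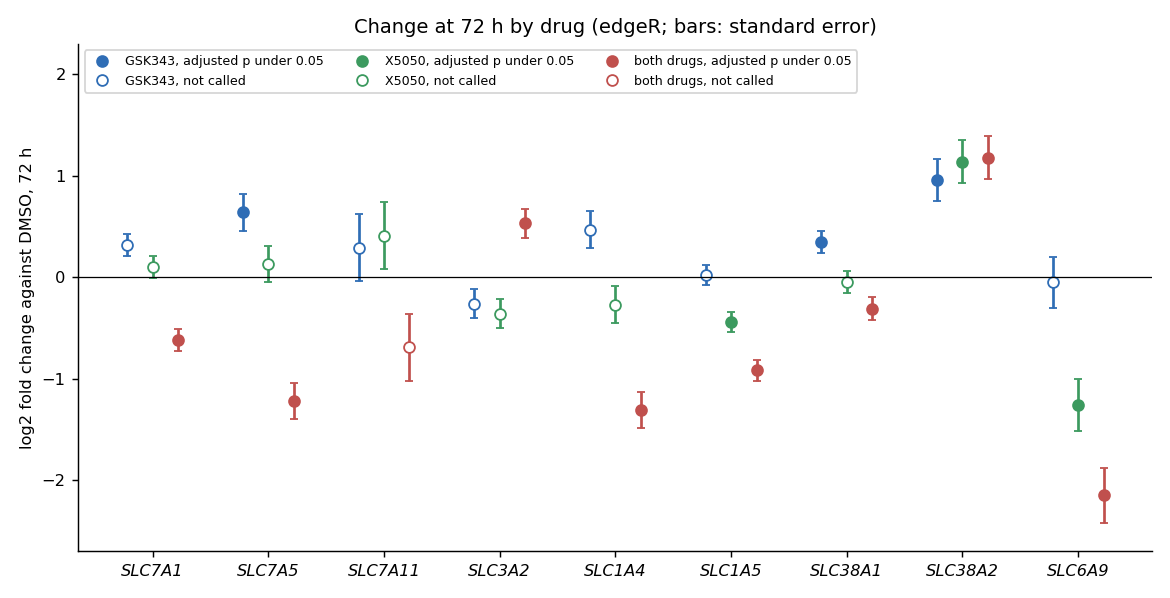
Log2 fold change against DMSO at 72 h from edgeR for GSK343 (blue), X5050 (green) and both drugs (red), with 2 libraries per group. Bars are standard errors from the fit over all 12 drug-arm libraries, whose groups share 1 estimate of the spread. Filled points have an adjusted p under 0.05. SLC7A5 was higher with GSK343 (0.64) and lower with both drugs (-1.22), and SLC38A2 was higher in all 3 comparisons.

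The design at 72 h has each drug with and without the other, so the departure of the pair from the sum of the single effects was tested as an interaction on the log2 scale. It was called for 7 of 9 members, 6 negative and 1 positive, where 18.8% of all genes were called (9.75% positive, 9.04% negative). The largest was that of SLC7A5 (-2.00, SE 0.25, edgeR adjusted p = 0.000179), whose X5050 effect was 0.13 alone and -1.86 on top of GSK343. SLC1A4 (-1.51, SE 0.25, edgeR adjusted p = 0.00121) and SLC7A1 (-1.03, SE 0.15, edgeR adjusted p = 0.000338) behaved alike: adding X5050 to GSK343 lowered SLC1A4 by 1.78 and SLC7A1 by 0.93 on the log2 scale, against -0.27 and 0.10 for X5050 alone. SLC3A2 had the positive interaction (1.15, SE 0.20, edgeR adjusted p = 0.00104). For SLC38A2 (-0.92, SE 0.29, edgeR adjusted p = 0.0463) the pair gave less than the sum of its parts. The interactions of SLC38A1 (-0.61, SE 0.15, edgeR adjusted p = 0.00974) and SLC1A5 (-0.50, SE 0.14, edgeR adjusted p = 0.0235) were smaller. Those of SLC7A11 (-1.38, SE 0.47, edgeR adjusted p = 0.076) and SLC6A9 (-0.85, SE 0.37, edgeR adjusted p = 0.142) were not called. SLC7A11 was called, however, without either DMSO library (-2.07 without replicate 1 and -0.93 without replicate 2), and SLC6A9 without DMSO replicate 1 (-1.31) or X5050 replicate 1 (-1.19). Leaving out 1 library gave 5 to 9 called members. The SLC38A2 interaction was -1.44 without DMSO replicate 1 and -0.55 without DMSO replicate 2. The calls of SLC38A2 and SLC1A5 were lost without either library of both drugs at 72 h (-0.93 and -0.91 for SLC38A2, -0.52 and -0.47 for SLC1A5) and with only the 72 h libraries in the fit, at values of -0.92 and -0.50. Directly compared, treatment with both drugs had 8 members called against GSK343 (7 lower, with 39.4% of all genes called, 20.5% lower and 18.9% higher). Against X5050 it had 7 (6 lower, with 30.3% of all genes called, 12.8% lower and 17.5% higher).

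Over time under both drugs the members separated into different courses. At 8 h only SLC1A5 (lower) and SLC38A2 (higher) were called, 2 of 9 against 43% of all genes (21.8% higher, 21.2% lower), or 4 of 9 without either DMSO library. At 24 h 3 were higher and 4 lower, against 43.1% of all genes (22% higher, 21.1% lower). With the GC trend removed 4 were called, in a fit whose share of all genes is not given here. From 8 to 24 h, 2 rose and 2 fell (35.8% of all genes called, 18.4% higher and 17.4% lower). From 24 to 72 h, 1 rose and 6 fell (45.9% of all genes called, 24.1% higher and 21.8% lower). The 24 h libraries were used in both of these last comparisons.

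SLC38A2 had the largest rise. It was at 987 and 954 CPM at 8 h and 2300 and 2430 at 24 h, each library above every DMSO or single-drug library, and fell back to 783 and 775 at 72 h. The rise over DMSO was 1.5 at 8 h (SE 0.21, edgeR adjusted p = 0.000126) and 2.78 at 24 h (SE 0.22, 6.87-fold, edgeR adjusted p = 1.15e-06), and the fall from 24 to 72 h was 3.03-fold (-1.60, SE 0.21, edgeR adjusted p = 6.39e-05). These SLC38A2 calls held in each alternative, although the 24 h value ranged from 2.40 without DMSO replicate 2 to 3.29 without DMSO replicate 1. SLC38A1 peaked at 24 h too, on a smaller scale, with 580 and 561 CPM at 8 h, 761 and 745 at 24 h and 391 and 380 at 72 h. Its rise over DMSO at 24 h was 0.66 (SE 0.11, edgeR adjusted p = 0.000127), or 0.41 and still called after GC correction, and its fall from 24 to 72 h was 0.97 (SE 0.11, 1.95-fold, edgeR adjusted p = 3.46e-06).

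SLC7A11 was the third member highest at 24 h. Its libraries were at 226 and 197 CPM at 8 h, 330 and 356 at 24 h and 114 and 85.6 at 72 h. The 24 h libraries lay above all others in the arm. The rise over DMSO (1.09, SE 0.33, edgeR adjusted p = 0.0274) was not called after GC correction (0.71) or without either 24 h library (1.14 and 1.03), and it was 1.76 without DMSO replicate 1 and 0.63 without DMSO replicate 2. The fall from 24 to 72 h was 3.43-fold (-1.78, SE 0.34, edgeR adjusted p = 0.00263) and held in each alternative.

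SLC6A9 ran the other way. It was at 36.7 and 37.5 CPM at 8 h, 10.7 and 9.49 at 24 h and 14.1 and 11.9 at 72 h. The fall at 24 h was 5.72-fold against DMSO (-2.52, SE 0.28, edgeR adjusted p = 2.62e-05), and 3.68-fold from 8 to 24 h (-1.88, SE 0.27, edgeR adjusted p = 0.000292). Between 24 and 72 h SLC6A9 was not called (0.36, SE 0.28).

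SLC7A5 and SLC1A4 had their lowest libraries at 72 h. SLC7A5 was at 597 and 700 CPM at 8 h, 559 and 540 at 24 h and 349 and 343 at 72 h, and SLC1A4 at 126 and 126, 80.1 and 75.9, and 54.9 and 49.2. For each gene the libraries of the 3 times did not overlap. Neither was called against DMSO at 8 h (-0.32 for SLC7A5 and -0.04 for SLC1A4). From 8 to 24 h SLC7A5 was not called (-0.24, SE 0.18, edgeR adjusted p = 0.314). SLC1A4 fell by 0.69 over that interval (SE 0.18, edgeR adjusted p = 0.00822), a call lost without replicate 2 at 24 h (-0.65). At 24 h SLC7A5 was at -0.56 against DMSO (SE 0.18, edgeR adjusted p = 0.0207), a call that was lost with a value of -0.17 both after GC correction and without DMSO replicate 1, and was -0.86 without DMSO replicate 2. SLC1A4 at 24 h was at -0.73 (SE 0.18, edgeR adjusted p = 0.00452), or at -0.43 and not called without DMSO replicate 1. From 24 to 72 h SLC7A5 fell by 0.67 (SE 0.18, edgeR adjusted p = 0.00707; -1.46 after GC correction) and SLC1A4 by 0.58 (SE 0.18, edgeR adjusted p = 0.0167), the latter call lost without replicate 1 at 24 h (-0.55) or replicate 2 at 72 h (-0.53).

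SLC1A5 was already low at 8 h and was low at each time. Its libraries were at 457 and 501 CPM at 8 h, 574 and 552 at 24 h and 488 and 471 at 72 h, all below the DMSO pair. The change against DMSO was -0.92 at 8 h (SE 0.10, edgeR adjusted p = 4.54e-06), -0.68 at 24 h (SE 0.10, edgeR adjusted p = 5.81e-05) and -0.92 at 72 h, and after GC correction the 8 h value was -0.50 and still called while the 24 h call was lost (-0.31). SLC7A1 moved late. SLC7A1 was at 261 and 253 CPM at 8 h and 259 and 246 at 24 h, near the DMSO pair, before the 72 h fall (-0.73 from 24 to 72 h, SE 0.11, edgeR adjusted p = 5.41e-05). SLC3A2 was at 425 and 404 CPM at 8 h and 340 and 332 at 24 h, the latter below both DMSO libraries. Its 24 h value against DMSO was not called (-0.35, SE 0.14, edgeR adjusted p = 0.0568). That value was -0.50 without DMSO replicate 1 and -0.18 without DMSO replicate 2. The SLC3A2 rise of 0.88 from 24 to 72 h (SE 0.14, edgeR adjusted p = 0.000105) was 0.29 and not called after GC correction.

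Genes that use, sense or move amino acids elsewhere in the cell were taken from fixed lists, and their counts stand beside those of all genes: 36.4% called at 72 h (19.2% higher, 17.3% lower) and 43.1% at 24 h (22% higher, 21.1% lower). At 72 h of both drugs, 15 of 27 regulators and targets of the amino acid response fell and 7 rose (median -0.79 against 0.01 over all genes). ASNS, the asparagine synthetase, fell from 1390 and 1470 CPM to 348 and 336 (-2.07, SE 0.16), and PSAT1 of serine synthesis from 377 and 321 to 84.4 and 87.9 (-2.02, SE 0.16). SHMT2 (-1.32, SE 0.11) and MTHFD2 (-1.70, SE 0.15), enzymes of mitochondrial folate metabolism, fell with them. At 24 h, when SLC38A2 was highest, 13 of the 27 fell and 6 rose. EIF2AK3, a kinase upstream of ATF4, rose by 1.76 at 24 h (SE 0.13), while SHMT2 (-1.22, SE 0.11) and PYCR1, an enzyme of proline synthesis (-0.92, SE 0.11), fell. Glutamine-using enzymes fell in 8 of 11 cases at 72 h and 1 rose (median -0.65). GLUL, glutamine synthetase, went from 1230 and 1330 CPM to 597 and 750, and GPT2, a mitochondrial transaminase, from 39.6 and 37.2 to 11.5 and 14.9.

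Lysosomal and intracellular transporters, taken as 1 list, mostly went the other way. Of 12 tested lysosomal and intracellular transporters (17 listed), 7 rose and 1 fell at 72 h of both drugs (median 0.86), where 19.2% of all genes rose and 17.3% fell. SLC38A7, a lysosomal glutamine exporter, rose from 7.35 and 5.52 CPM to 36.0 and 29.1 (2.34, SE 0.22), and CTNS, the lysosomal cystine exporter, from 11.5 and 5.32 to 34.6 and 29.1 (1.92, SE 0.25). SLC66A1, which exports cationic amino acids from lysosomes, rose by 1.38 (SE 0.15). SLC17A7 of the same list rose by 1.35 (SE 0.2). SLC38A9, on that list too, was at 19.6 and 17.9 CPM in DMSO and 19.5 and 14 under both drugs at 72 h. Among 13 tested plasma membrane amino acid transporters outside the 9 (28 listed), 4 rose and 1 fell. SLC43A1, a sodium-independent carrier of large neutral amino acids, was the one that fell (-1.20, SE 0.15), and SLC6A6, the taurine carrier, rose (0.86, SE 0.13). Of 9 tested mitochondrial carriers 3 rose and 1 fell, with SFXN3 at 2.97 (SE 0.32). The sensing genes of mTORC1 had 8 rises and 2 falls among 22, led by TSC1 (1.53, SE 0.13) and FLCN (1.63, SE 0.15), and 6 rises and 5 falls at 24 h. The shares called in the plasma membrane, mitochondrial and mTORC1 lists at 72 h, 5 of 13, 4 of 9 and 10 of 22, were near the 36.4% of all genes, and that of mTORC1 at 24 h near 43.1%.

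The list on cystine use and glutathione was mixed, whereas the called genes of the list on glycine use and heme synthesis mostly fell. Both are read against 22% of all genes higher and 21.1% lower at 24 h, and 19.2% and 17.3% at 72 h. Of 15 cystine and glutathione genes, 7 rose and 4 fell at 24 h, when SLC7A11 was highest, and 5 rose and 3 fell at 72 h. TXNRD1, thioredoxin reductase, went from 256 and 315 CPM in DMSO to 1240 and 1180 at 24 h (2.08, SE 0.12), and GCLC, of glutathione synthesis, rose by 1.49 (SE 0.11) at 24 h and by 1.03 (SE 0.11) at 72 h. CBS, of transsulfuration, fell by 1.38 at 72 h (SE 0.11). Of 11 tested genes of a list on glycine use and heme synthesis, which also holds the serine-glycine enzyme SHMT1 and the mitochondrial iron importer SLC25A37, 8 fell and none rose at 24 h (median -0.93), the time of the lowest SLC6A9. ALAD fell by 1.66 (SE 0.16) and PPOX by 1.84 (SE 0.20) at 24 h. At 72 h 5 fell and 1 rose, the riser being ALAS1, which condenses glycine with succinyl-CoA (1.01, SE 0.12). Of the 10 K562 markers 4 rose and 5 fell at 24 h. The risers were TFRC, the transferrin receptor, from 447 and 483 CPM to 2700 and 2720 (2.54), and the globins HBZ (1.57), HBG1 (1.17) and HBE1 (0.97). KLF1, an erythroid transcription factor among the 5 that fell, went from 62.2 and 86.2 CPM in DMSO to 10.1 and 6.98 at 24 h, and GATA1 from 191 and 220 to 104 and 112; the part of these markers in the SLC6A9 result was not tested. All calls of this and the preceding paragraphs on lists are edgeR calls over all genes.

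**Figure D4:**
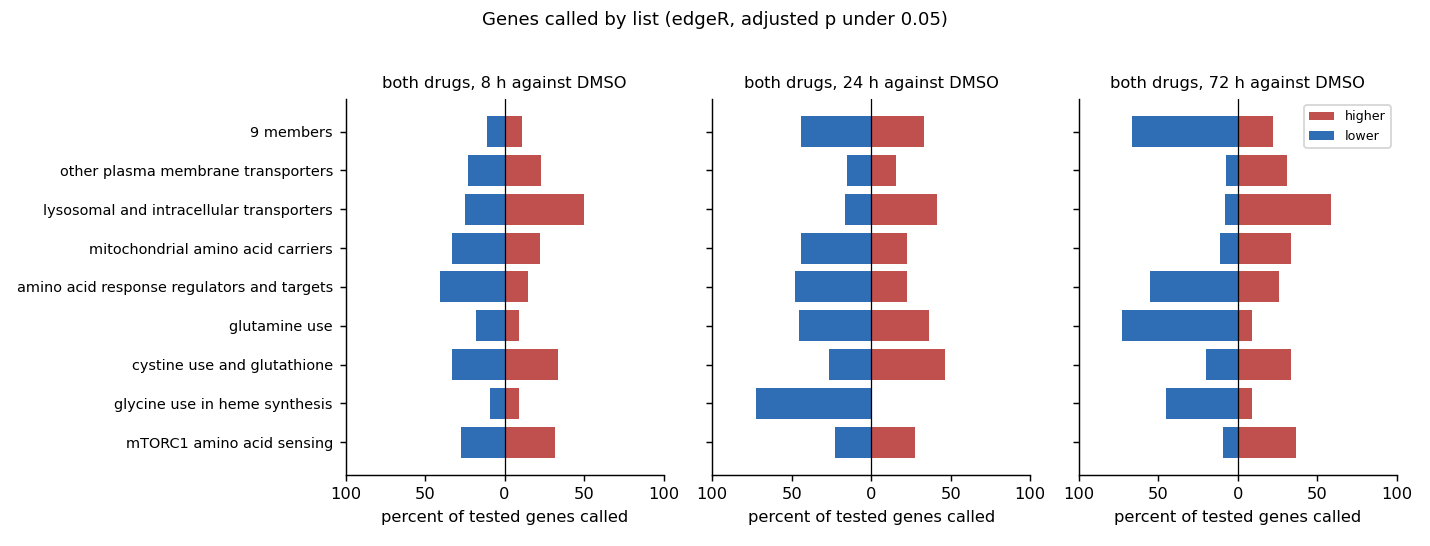
Percent of tested genes of the transporters and of each list drawn called higher (red, to the right) or lower (blue, to the left) under both drugs against DMSO at 8, 24 and 72 h, from edgeR at an adjusted p under 0.05. At 72 h the blue bars of the 9 transporters, of glutamine use and of the amino acid response list were the longest. Among the lists drawn, the list of lysosomal and intracellular transporters had the longest red bar.

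Likeness of course was measured as the root mean square difference of centred log2 CPM over the 12 drug-arm libraries, among 9863 genes averaging 5 CPM or more. PCK2, the mitochondrial phosphoenolpyruvate carboxykinase, was the nearest gene to SLC7A5 (0.124, where SLC7A5 itself had an SD of 0.60) and also to SLC1A4 (0.191, SD 0.59). SLC1A5 was nearest to HOXB9 (0.097, SD 0.39), SLC7A1 to IRAK4 (0.095, SD 0.30), SLC38A1 to CERS5 (0.115, SD 0.32) and SLC3A2 to RRP8 (0.143, SD 0.33). The distances were larger for SLC38A2 (ARHGAP25, 0.275, SD 0.86), SLC7A11 (C18orf54, 0.275, SD 0.61) and SLC6A9 (ACACB, 0.323, SD 0.97), which also varied more. Each distance is to be read beside that SD. The libraries share groups and depth, so these distances are descriptions.

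Relative abundance among members can be read per length in the excision arm, where the authors' TPM, a length-adjusted share of transcripts, was summed per gene. Over the 8 libraries SLC1A5 had a median of 134 TPM (113 to 171) and SLC3A2 122 (102 to 220). SLC38A2 followed at 89.6 (54.2 to 150), SLC7A5 at 43.5 (30.7 to 85.3) and SLC38A1 at 42.6 (38.7 to 55.5). SLC7A1 (11.9, 9.30 to 20), SLC1A4 (7.66, 4.54 to 26.5), SLC7A11 (7.03, 3.76 to 27.7) and SLC6A9 (5.07, 3.10 to 15.9) were lower. The ranges of neighbours in this order overlapped except between SLC38A1 and SLC7A1. All transcripts listed for a gene entered these sums, noncoding ones included, so the order is not one of coding mRNA alone. A processed transcript of 576 bases held 8.51 to 16.7% of the TPM of SLC38A2. Another, of 873 bases, held 6.91 to 16.4% of that of SLC3A2.

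No member was called in the excision arm with all 8 libraries in the fit. In S1KO 0 of 9 were called where 3.67% of all 21285 genes tested were (2.44% higher, 1.23% lower). In S2KO 0 of 9 were called where 2.01% were (1.45% higher, 0.554% lower), and in DKO 0 of 9 where 8.77% were (5.41% higher, 3.35% lower). At an unadjusted p under 0.05 edgeR had 0 members in S1KO and S2KO and 1, SLC38A2, in DKO, and DESeq2 called 0 in each. SLC38A2 was called in DKO when only the EV and DKO libraries entered the fit (-1.05). With the replicate number as a block it was called too (-1.04), and with the block and a GC correction SLC7A1, SLC7A5, SLC1A5 and SLC38A2 were called, although the labels do not tie equal numbers together. The shares of all genes called in these alternative fits are not given here, and the 8.77% belongs to the fit over all 8 libraries. Within each of EV, S1KO and S2KO the libraries stood far apart: replicate 2 was higher than replicate 1 for 9 of 9 members in each of the 3 groups, with median ratios of 1.82, 2.06 and 2.25. In DKO it was higher for 7 of 9 with a median ratio of 1.08. The members' median log2 ratios were 0.86 in EV, 1.04 in S1KO, 1.17 in S2KO and 0.11 in DKO. Over 10423 genes the median absolute log2 difference between replicates was 0.36, 0.24, 0.36 and 0.08 in the same order. The K562 marker sum was lower in replicate 2 except in DKO. It was at 6250 and 2700 CPM (EV replicates 1 and 2), 16600 and 9220 (S1KO), 12700 and 5880 (S2KO), and 16900 and 19800 (DKO). What separates the replicates is not given in the labels, and its part in these results was not tested.

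**Figure D5:**
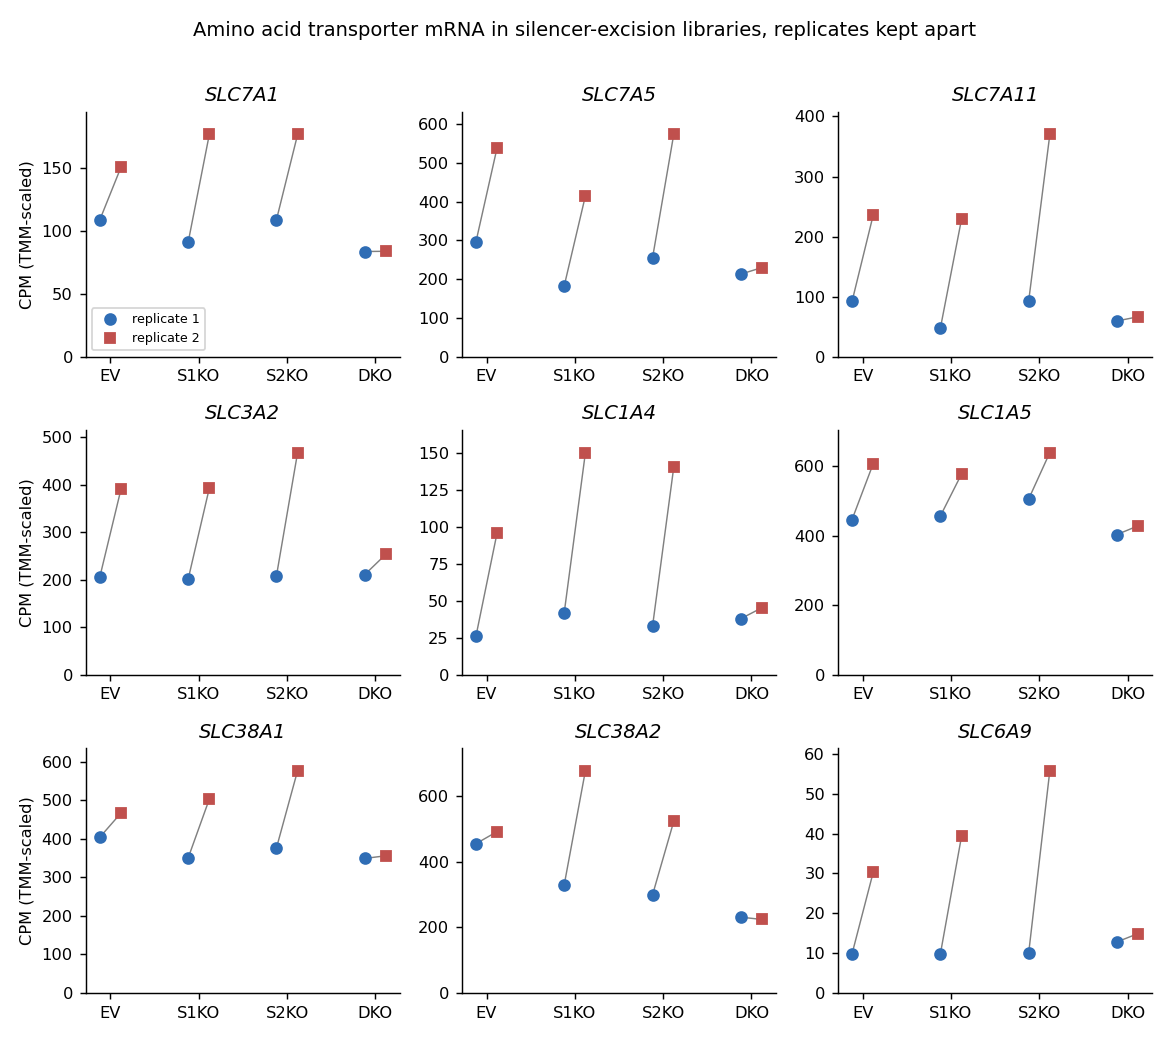
TMM-scaled CPM of each transporter in the 8 excision libraries, replicate 1 as blue circles and replicate 2 as red squares, joined within a group. In EV, S1KO and S2KO replicate 2 lies above replicate 1 for each gene, whereas the DKO pair lies close together.

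For several members both DKO libraries lay below both EV libraries, though none was called with all 8 libraries in the fit. The share of all genes with this order is not given here, so the order describes these libraries only. SLC38A2 stood at 455 and 492 CPM with the empty vector, 330 and 678 (S1KO), 299 and 523 (S2KO), and 231 and 224 (DKO). Its DKO libraries lay below all others, and the test over all libraries gave -1.06 (SE 0.38, edgeR adjusted p = 0.15). SLC7A5 stood at 296 and 539 CPM with the empty vector, 183 and 415 (S1KO), 255 and 573 (S2KO), and 213 and 230 (DKO), so DKO lay below EV and the other groups overlapped it. SLC7A1 (109 and 151 CPM in EV, 83.8 and 84.0 in DKO) and SLC1A5 (447 and 608 in EV, 404 and 429 in DKO) had DKO libraries below both EV libraries. SLC7A11 did so too, with 92.1 and 236 CPM in EV and 59.6 and 66.6 in DKO, but with an SE of 0.90 around -1.38. SLC38A1, at 404 and 467 CPM in EV, was at 349 and 356 in DKO.

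The DKO libraries of the remaining members lay within the range of the EV libraries. SLC1A4 in DKO, at 37.9 and 45.3 CPM, lay between the EV libraries of 26.0 and 95.9. SLC6A9 in DKO, at 12.8 and 14.9, likewise lay between 9.80 and 30.3. SLC3A2 was at 206 and 391 CPM in EV and 211 and 254 in DKO. SLC1A4 was at 42.0 and 150 CPM in S1KO and 32.8 and 140 in S2KO, overlapping EV, with a standard error of 0.90 in the fit over all libraries.

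Some genes around the members were called in DKO, where 5.41% of all genes rose and 3.35% fell. SLC7A8 was at 3.18 and 2.14 CPM in EV and 34.2 and 34.5 in DKO, a rise of 3.69 (SE 0.45, edgeR adjusted p = 0.0047), with 8.19 and 4.03 in S1KO and 6.58 and 4.04 in S2KO. Of 15 tested plasma membrane transporters outside the 9, 2 rose and 1 fell. SLC16A10, an aromatic amino acid carrier, was the other riser, at 0.81 and 0.609 CPM in EV and 3.95 and 3.97 in DKO, a call lost without either DKO library. SLC6A19, the one that fell, lost its call without any 1 of DKO replicate 1, DKO replicate 2 or EV replicate 1 (-1.86, -1.98 and -1.40). GLUL fell from 3150 and 2240 CPM to 1170 and 917 (-1.37, SE 0.25, edgeR adjusted p = 0.0195), a call lost without any 1 of DKO replicate 1, DKO replicate 2 or EV replicate 1. Of 12 glycine and heme genes 4 rose, with ALAS2, the erythroid form of the first enzyme, from 11.7 and 13.0 CPM to 130 and 180 (3.65, SE 0.36, edgeR adjusted p = 0.00229). Among these, UROS lost its call without either DKO library (1.40 and 1.24), and GLDC without either DKO library or EV replicate 2 (4.86, 5.30 and 4.14). The amino acid response list had 0 of 27 called in DKO, with a median of -0.93. The summed level of other cell types' markers was 108 and 150 CPM in EV and 238 and 271 in DKO, with COL1A2 at 0.430 and 0.346 CPM in EV and 125 and 104 in DKO and COL3A1 never above 1.61; the part of these markers in the DKO values was not tested.

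The transcript makeup of the members in the excision arm was read from the authors' TPM, as each transcript's share of the TPM summed per gene. For SLC7A5 the coding transcript SLC7A5-201 held 64.8 to 89.0% of the gene's TPM, and the shorter coding SLC7A5-203 held 10.1 to 33.3%. The share of SLC7A5-203 was 29.3 and 33.3% (DKO), 22.1 and 14.5% (EV), 18.9 and 13.9% (S1KO) and 15.0 and 10.1% (S2KO), so the DKO libraries lay above the rest. SLC7A11-201 held 77.5 to 94.7% and SLC7A1-201 83.2 to 88.9% of their genes' TPM. SLC3A2, with 23 listed transcripts, was the most divided, its leading SLC3A2-201 holding 20.9 to 35.8%. No test was run on these shares, which rest on kallisto's division of shared reads. In the drug arm, the processed copy SLC7A5P1 had 43 to 276 counts and SLC7A5P2 had 0 and SLC7A11-AS1 had 6 to 41.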

How the data were processed

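Total RNA libraries (TruSeq Stranded Total RNA with Ribo-Zero, per the labels' protocols) of K562 cells were used as deposited. The submitters' processing notes name Trimmomatic 0.38, STAR 2.7.3a, kallisto 0.44.0 and hg19. The annotation release is not given in the sources used here. For the drug arm the authors deposited whole-number read counts per gene, not normalized, in STAR's layout, and the reverse-strand column was used because it held 8.008 to 9.768 times the counts of the forward column. Over these libraries, the rows for reads outside genes held 34 to 50.67% of reads and were left out of library sizes and tests. For the excision arm the authors deposited kallisto estimated counts and TPM per transcript, per the file headers, with transcript lengths. Sums of the estimated counts over each gene's transcripts were rounded to whole counts. Transcripts and symbols were matched to GENCODE 29, which held 84.7% of the transcript identifiers, with 3 older symbols resolved from a gene name table.

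Each arm was fitted by itself in edgeR 4.0.16 (R 4.3.3): filterByExpr, TMM factors, 1 mean per group over all libraries of the arm, robust quasi-likelihood, two-sided tests and Benjamini-Hochberg adjustment over all genes tested. Standard errors are the log2 change divided by the root of the F statistic. An exact permutation test of 2 libraries against 2 cannot go below p = 0.333, so no single-gene permutation was used. CPM are TMM-scaled. Alternatives were DESeq2 1.42.0, RLE factors, no filter, both strands, length-scaled TPM, a GC trend removed per library (loess span 0.3, gene GC known for 96.2% and 100% of tested genes), the replicate block, a fit of the compared groups alone, leaving out the DKO libraries (for the single excisions) and leaving out each library in turn. The fit was tested on simulated counts. Chi-square over degrees of freedom between replicates was 7.14 to 326, so no library was counted as a duplicate.

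All 9 members were tested in every comparison, but not every value is printed. Of the other lists, counts are given for some comparisons, and most named genes are among the 4 called genes with the lowest p. Others, such as SLC7A6, SLC7A7, SLC38A9, COL3A1 and the globins at 24 h, were named outside that rule. The members and lists were chosen with earlier results of these data known. Replicate numbers were not taken as pairs: deviations of same-numbered libraries correlated at -0.22 to 0.44 in the drug arm and at -0.27 to 0.90 in the excision arm. The motif search was widened past the start site after the data were seen, and protein sequences were not used here.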

Additional observations from a re-analysis of the deposited data

Results flagged for a closer look

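At 72 h the effect of X5050 in the presence of GSK343 differed from its effect without it for 7 members by edgeR's interaction test at an adjusted p under 0.05. The differences in log2 effect, with minus without GSK343, were -1.03 for SLC7A1, -2.00 for SLC7A5, 1.15 for SLC3A2, -1.51 for SLC1A4, -0.50 for SLC1A5, -0.61 for SLC38A1 and -0.92 for SLC38A2. The 4 groups share the DMSO pair, whose libraries differed 1.04 to 2.20-fold for the members. Leaving out DMSO replicate 1 or 2 gave -2.39 and -1.70 for SLC7A5, 1.30 and 0.97 for SLC3A2, -1.82 and -1.27 for SLC1A4, -1.15 and -0.94 for SLC7A1, -0.48 and -0.54 for SLC1A5, -0.71 and -0.53 for SLC38A1, and -1.44 and -0.55 for SLC38A2, all still called. SLC38A2 and SLC1A5 lost their calls without either library of both drugs at 72 h. Leaving out 1 library gave 5 to 9 called members, with SLC7A11 among them without either DMSO library. Groups of 2 libraries are too small for a test of single outlying libraries.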

How the results depend on the processing

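Across the alternatives, 1299 member values kept their direction and side of the threshold, 74 that were called in neither analysis changed sign (in 34 of the member comparisons), 91 lost the call, 48 gained it and no called value changed sign. With only the 2 groups compared in the fit, the members called went from 3 to 0 under GSK343 and from 3 to 0 under X5050, from 4 to 8 between 8 and 24 h, and from 0 to 1 in DKO. With only the 72 h groups, chosen after seeing the data, GSK343 had 1. Leaving out 1 library gave 0 to 7 members for GSK343 (0 without either GSK343 library, 1 without DMSO replicate 2, 7 without DMSO replicate 1), 1 to 6 for X5050 (1 without X5050 replicate 1, 6 without DMSO replicate 1), and 2 to 4 for both drugs at 8 h (4 without either DMSO library). At 24 h, 7 called members became 4 with the GC trend removed. For the GC fit and the fits of 2 groups the share of all genes called is not given here. All genes called ranged from 739 to 4287 for GSK343, 815 to 3121 for X5050, 2296 to 4854 for the interaction and 526 to 1333 for DKO when 1 library was left out; where an arm then had 1 library, it was assumed to vary like the other groups.

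With the replicate number as a block (replicate block), 1 member, SLC38A2, was called in DKO (-1.04), and 4 with the block and the GC correction. At 24 h the block with the GC correction gave 4 members. The shares of all genes called with the block are not given here. Same-numbered EV, S1KO and S2KO libraries deviated together (r = 0.78 to 0.90) and DKO did not (-0.20 to -0.27). The labels do not tie the numbers to a shared batch, so they were not taken as pairs. Precision was limited by having 2 libraries per group and by the spread between them, not by depth. In the excision arm that spread was wider within EV, S1KO and S2KO than within DKO.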
